A study of Mus musculus with 2 samples.

Results

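Nuclear receptors are transcription factors whose activity is set, for many of them, by a small lipophilic ligand such as a steroid, a retinoid, thyroid hormone, an oxysterol or a fatty acid. A typical member has a DNA-binding domain of paired zinc fingers and a ligand-binding domain that exchanges corepressors for coactivators. Steroid receptors bind DNA as homodimers, many others as heterodimers with a retinoid X receptor, and some as monomers. In the pancreatic beta cell, members of the superfamily such as HNF4-alpha, the liver X receptors and the estrogen-related receptors are known for roles in insulin secretion, lipid handling and mitochondrial metabolism.

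The genes described here are a list of 40 nuclear receptor genes, which leaves out Nr3c1 (the glucocorticoid receptor, GR) and the Nr4a and Nr1d genes. Members were found by gene symbol in a table of 21542 genes, and 31 of the 40 were listed. The data are messenger RNA sequencing of MIN6, a mouse insulinoma line that secretes insulin and is labelled with the strain C57BL/6. The GR vector group is 1 library of cells transfected with a GR expression vector, and the control vector group is 1 library of cells transfected with a control vector. Both were transfected with a lipid reagent and grown in high-glucose medium with serum. Which GR cDNA the vector carried, when cells were harvested and whether a glucocorticoid was added is not given in the sources used here. MIN6 is a tumour line, so both groups carry the changes of that line.

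With 1 library per group, no difference below has a replicate check. The GR vector library held 18525668 reads over genes and the control vector library 18537326, and the table lists no gene with fewer than 2 reads over both. All 10 beta cell markers were listed, Ins1, Ins2, Pdx1 and Mafa among them. They took 4.25% of the reads with the GR vector and 4.50% with the control vector, and all 10 lay within 1.1-fold. Ins1, Ins2 and Iapp were lower in the binomial test used below, with folds of 0.956, 0.917 and 0.968 (GR vector over control vector). Of all genes that averaged 100 reads or more, that test called 1.92% lower. Ins1, Ins2 and Iapp had 51817, 373033 and 273874 reads with the GR vector, and at such depth the test passes very small folds. That share covers genes of far lower counts too. Of 8 markers of alpha, delta and PP cells 4 were not listed, nor were 7 of 8 acinar and duct markers, 3 of 7 fibroblast and endothelial markers and 3 of 5 immune markers. The alpha, delta and PP list had 5910 reads with the GR vector and 5825 with the control vector. Most were of Ttr (5164 with the GR vector and 5187 with the control vector). Gcg had 623 with the GR vector and 537 with the control vector (fold 1.16, 1.035 to 1.308). Sst had 114 with the GR vector and 92 with the control vector (fold 1.24, 0.936 to 1.654), and Irx2 had 9 in each. None of these passed the binomial test. The fibroblast and endothelial list had 77 reads with the GR vector and 73 with the control vector, and the immune list 22 with the GR vector and 26 with the control vector. The 1 listed acinar and duct marker, Krt7, had 2166 reads with the GR vector and 2429 with the control vector and was also lower in that exact test (adjusted p = 0.0125). Nr3c1 had 5202 reads with the GR vector and 2645 with the control vector, a fold of 1.97 (exact 95% Clopper-Pearson interval 1.88 to 2.07). Vector transcripts and those of the cells' own gene cannot be told apart in these counts. Intervals here cover counting error only, since reads are not independent molecules and the spread between cultures was not measured.

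Per length, total Nr3c1 transcript, from the vector and the cells' own gene together, ranked above every listed member with the GR vector. Nr3c1 stood at 37.9 RPKM (reads per kilobase of gene and per 1e6 reads, computed here with the deposited gene length) with the GR vector and at 19.2 RPKM with the control vector. It ranked 1 among 32 receptor genes (the 31 listed members and Nr3c1) with the GR vector and 5 with the control vector, where Rxrb, Nr2f6, Rxra and Nr1h2 lay above it. With the control vector Nr1h2 at 19.4 RPKM and Rxra at 19.9 RPKM lay close to Nr3c1, so that rank is approximate. A vector transcript may be shorter than the annotated gene of 7425 bases, so the level with the GR vector is approximate.

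Receptors differ in the DNA they bind, and a short stretch of the first zinc finger, the recognition helix, carries much of that difference. The stretches below show which members share that stretch with the steroid receptor type of GR. They are coding sequence of GENCODE M21 transcripts (GRCm38), 30 bases each, starting at the codon of the third zinc-binding cysteine of the finger, with the 3 codons that tell receptor classes apart in capitals. Nr3c2 lies at chr8:77085627-77085656 (plus strand), Pgr at chr9:8903708-8903737 (plus), Esr1 at chr10:4746768-4746797 (plus), Esrra at chr19:6920073-6920102 (minus), Hnf4a at chr2:163551690-163551719 (plus), Nr2f2 at chr7:70360015-70360044 (minus), Nr2f6 at chr8:71381023-71381052 (minus), Nr2c2 at chr6:92154358-92154387 (plus), Nr1h2 at chr7:44552088-44552117 (minus), Rxra at chr2:27741787-27741816 (plus) and Rora at chr9:69348203-69361753 (plus), where an intron interrupts it.
Nr3c2: tgcGGCAGCtgcaaaGTCttcttcaaaaga
Pgr: tgtGGGAGCtgcaagGTCttctttaagagg
Esr1: tgcGAAGGCtgcaagGCTttctttaagaga
Esrra: tgtGAGGCCtgcaaaGCCttcttcaagagg
Hnf4a: tgtGACGGCtgcaagGGGttcttcaggagg
Nr2f2: tgcGAGGGCtgcaagAGCttcttcaagcgc
Nr2f6: tgcGAGGGCtgcaagAGTttcttcaagcgc
Nr2c2: tgtGAAGGTtgcaaaGGTttcttcaaaagg
Nr1h2: tgtGAAGGCtgcaaaGGCttcttccggcgc
Rxra: tgtGAGGGCtgcaagGGCttcttcaagagg
Rora: tgtGAAGGCtgcaagGGCtttttcaggaga

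Sorted by what the 3 capital codons encode, the 38 members in which the stretch was found fell into 8 groups. The Nr3c2 and Pgr group, which is the type of GR, had 57 reads with the GR vector and 58 with the control vector. The largest group, that of Rxra, Rora, Nr1h2 and Nr2c2, held 22 members, of which 18 were listed, with 12016 reads with the GR vector and 11949 with the control vector. Nr2f1, Nr2f2 and Nr2f6 formed a group with 1766 reads with the GR vector and 1677 with the control vector, and the 3 estrogen-related receptors one with 758 with the GR vector and 797 with the control vector. Nr0b1 and Nr0b2, which lack a DNA-binding domain, gave no match. In these cells the members that share the stretch of GR were among the least read, at 0.443 RPKM together with the GR vector and 0.442 RPKM with the control vector.

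Most receptor transcripts had close to the same level in the libraries, and 2 members differed. Nr2f2 (COUP-TFII, an orphan receptor that often acts as a repressor) and Rora (an orphan receptor that binds as a monomer and activates core clock genes) were higher with the GR vector. The calls come from the library test, a two-sided exact binomial test on each gene's reads. Its p-values were adjusted by Benjamini-Hochberg over the 21542 genes, with a threshold of 0.05. It compares these libraries, not the conditions. It called 2 of the 31 listed members, both higher, where it called 2.72% of all genes (1.58% higher and 1.14% lower). Genes whose reads averaged 100 or more over the libraries are called well-read here, and both members are among the 18 well-read ones. Of the 11070 well-read genes the test called 4.69% (2.77% higher and 1.92% lower). The lists of receptor targets below hold at most 10 genes each, so 0 calls in such a list is close to that share. By the authors' deposited table, none of the 31 members passed an adjusted p of 0.05, where 0.0186% of all genes did, and none had an unadjusted p under 0.05. The authors' deposited table did not pass Nr3c1 itself either (unadjusted p = 0.0183, adjusted p = 1.00). The p-values of that table equal those of an edgeR exact test with a preset dispersion of 0.04, so their spread was assumed. An edgeR exact test with a lower preset dispersion of 0.01 called 0 of the members too. In bulk RNA, fewer cells of a type and less RNA per cell cannot be told apart.

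**Figure D1:**
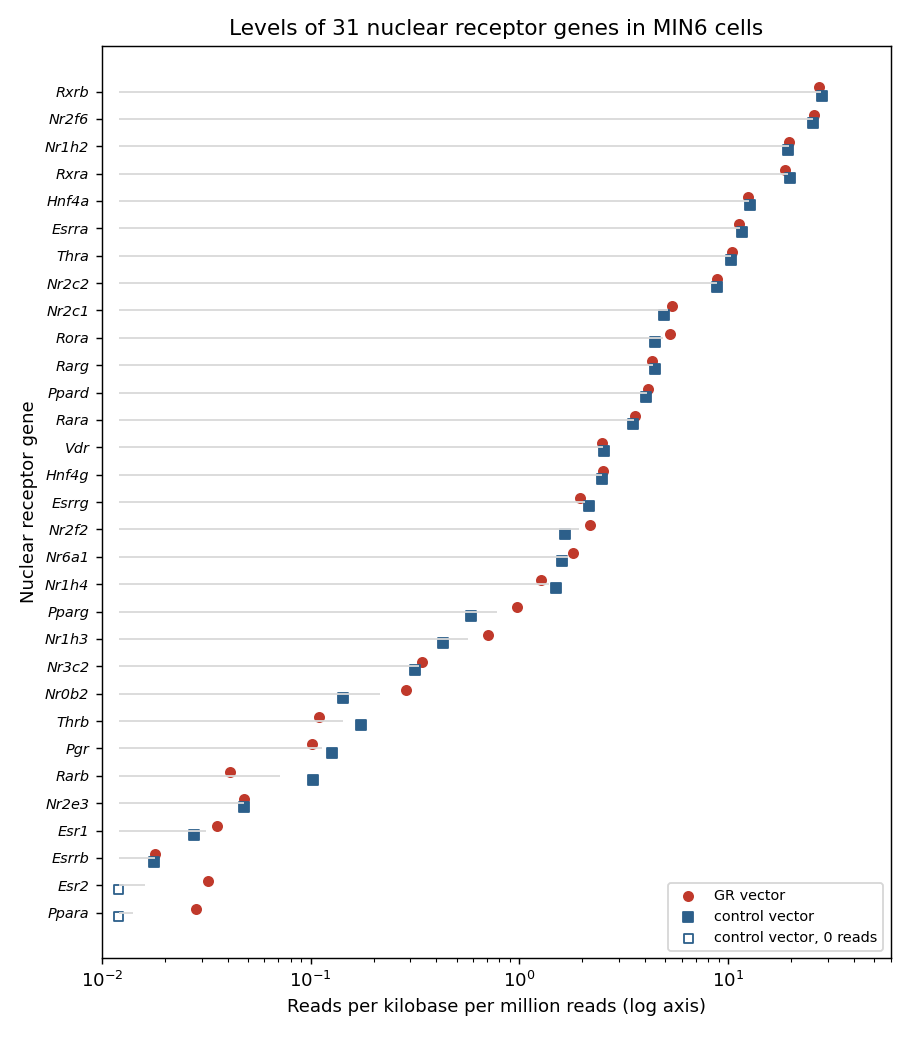
Level of each of the 31 listed nuclear receptor genes in RPKM (log axis), circles for the GR vector library and squares for the control vector library, sorted by mean level; open squares mark 0 reads with the control vector. Rxrb, Nr2f6, Nr1h2 and Rxra lie highest, between 18.7 and 28.3, and the pairs of symbols lie farthest apart for genes with few reads such as Rarb.

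The 31 listed members together had 15849 reads with the GR vector and 15755 with the control vector, which is 0.0856% of all reads with the GR vector and 0.0850% with the control vector. The 7 members that averaged 1000 reads or more (Nr2c2, Rxra, Rxrb, Nr2f6, Nr1h2, Rora and Hnf4a) took 70.7% of the member reads with the GR vector and 71.5% with the control vector. Another 11 members had means from 100 to 1000 reads, 6 from 10 to 100 and 7 under 10. Among the 18 well-read members the median log2 fold was 0.012, against 0.004 over all 11070 such genes. Of these members 10 lay above 0 and 8 below, and 14 (77.8%) were within 1.1-fold, against 78.9% of all such genes.

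Retinoid X receptors, the shared heterodimer partners of the retinoic acid, thyroid hormone, vitamin D, PPAR, LXR and FXR receptors, were the most read of the ligand-binding members. Rxrb had 1868 reads with the GR vector and 1945 with the control vector, a fold of 0.963 (0.903 to 1.03). Rxra had 1889 reads with the GR vector and 2018 with the control vector, a fold of 0.939 (0.881 to 1.00; adjusted p = 0.378 in the library test). Neither passed the test, and Rxrg was not listed. Rxra had an unadjusted p of 0.0491 in the library test, and 19.8% of well-read genes had 1 under 0.05. The pooled reads of the pair gave a fold of 0.951 (0.909 to 0.994, counting error only). With the trend of fold over GC content removed, the log2 fold was -0.04 for Rxra and 0.01 for Rxrb. By level the pair summed to 46.0 RPKM with the GR vector and 48.2 RPKM with the control vector. The 12 listed genes of their partner receptors summed to 47.7 RPKM with the GR vector and 46.9 RPKM with the control vector, with ratios of partner to RXR of 1.04 with the GR vector and 0.972 with the control vector.

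Retinoic acid receptors bind all-trans retinoic acid and repress their targets without it. Rarg had 341 reads with the GR vector and 351 with the control vector (fold 0.974, 0.837 to 1.13). Rara had 289 reads with the GR vector and 285 with the control vector (fold 1.02, 0.861 to 1.202). Rarb, itself a classic retinoic acid target, had 4 reads with the GR vector and 10 with the control vector, too few to place. Exons of Top2b on the opposite strand and other overlapping genes cover 38.4% of its exon length, and the sources used here do not say how the counting used strand. Of 8 retinoic acid target genes 7 were listed and 0 passed the library test in either direction. The most read of them, Dhrs3 (a retinaldehyde reductase), had 226 reads with the GR vector and 236 with the control vector.

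Among the receptors for thyroid hormone and vitamin D, the alpha form made up nearly all thyroid hormone receptor reads. Thra had 890 reads with the GR vector and 878 with the control vector, a fold of 1.02 (0.925 to 1.12), and Thrb had 15 with the GR vector and 24 with the control vector. Thra took 98.3% of the reads of the pair with the GR vector (exact 95% interval 97.3 to 99.1) and 97.3% with the control vector (96.1 to 98.3), and the intervals overlap. Exons of Nr1d1 on the opposite strand overlap Thra over 5.70% of its exon length, and Nr1d1 (the clock repressor REV-ERB-alpha) had 254 reads with the GR vector and 251 with the control vector. Vdr, the receptor of active vitamin D, had 261 reads with the GR vector and 265 with the control vector (fold 0.988, 0.829 to 1.18). All 6 thyroid hormone targets were listed and 0 passed the library test, the most read being Mafa (a beta cell transcription factor, 17357 reads with the GR vector and 17066 with the control vector) and Me1 (malic enzyme, 2215 with the GR vector and 2126 with the control vector). Of 4 vitamin D targets 2 were listed, Cdkn1a and Calb1, and 0 passed. Cdkn1a, a cell cycle inhibitor with many other inputs, had 6995 reads with the GR vector and 7394 with the control vector (fold 0.949, 0.918 to 0.980; adjusted p = 0.0567 in the library test).

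PPARs sense fatty acids and control their oxidation and storage. Ppard, the isotype found in most tissues, had 572 reads with the GR vector and 560 with the control vector (fold 1.02, 0.910 to 1.15). Pparg, the adipocyte isotype, had 53 reads with the GR vector and 32 with the control vector. Its fold of 1.66 (1.05 to 2.66) did not pass the exact binomial library test (unadjusted p = 0.0228, adjusted p = 0.260). Ppara, the liver isotype, had 2 reads with the GR vector and 0 with the control vector, which is within the 3 reads that a count of 0 allows. Ppard took 91.2% of PPAR reads with the GR vector (88.7 to 93.3) and 94.6% with the control vector (92.5 to 96.3). Of 10 PPAR targets 7 were listed, and 1 of them, Acadvl, the very long chain acyl-CoA dehydrogenase of mitochondrial beta-oxidation, passed the library test. All 7 were well-read, and of all well-read genes the test called 4.69%. Acadvl had 853 reads with the GR vector and 716 with the control vector, a fold of 1.19 (1.08 to 1.32, adjusted p = 0.0254 in the library test), and was not called by the edgeR exact test with a preset dispersion of 0.01 or 0.04. Hadha, of the trifunctional protein of beta-oxidation and the most read PPAR target, had 3005 reads with the GR vector and 2908 with the control vector.

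Liver X receptors sense oxysterols and raise cholesterol efflux and fatty acid synthesis. Nr1h2 (LXR-beta) had 1216 reads with the GR vector and 1206 with the control vector, a fold of 1.01 (0.933 to 1.096). Nr1h3 (LXR-alpha) had 33 reads with the GR vector and 20 with the control vector (fold 1.65, 0.922 to 3.04). Nr1h2 made up 97.4% of LXR reads with the GR vector (96.3 to 98.2) and 98.4% with the control vector (97.5 to 99.0). Nr1h4 (FXR, the bile acid receptor) had 54 reads with the GR vector and 64 with the control vector, and the xenobiotic receptors Nr1i2 and Nr1i3 were not listed. All 9 LXR targets were listed and 0 passed the library test. Srebf1, the lipogenic factor SREBP-1, had 3801 reads with the GR vector and 4066 with the control vector (fold 0.938, 0.897 to 0.980; adjusted p = 0.105). Scd2, a stearoyl-CoA desaturase and the most read of the list, had 14127 reads with the GR vector and 13908 with the control vector. Fasn (fatty acid synthase) had 6593 with the GR vector and 6908 with the control vector. Scd1, another stearoyl-CoA desaturase, had 545 with the GR vector and 469 with the control vector (fold 1.17, 1.03 to 1.32). Among the 8 well-read LXR targets 4 lay above 0 and 4 below, with a median log2 fold of 0.003. Of 7 targets of FXR and the xenobiotic receptors 3 were listed, with 29 reads together with the GR vector and 23 with the control vector.

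HNF4 receptors hold a constitutively bound fatty acid and control metabolic genes of liver, gut and beta cells. Hnf4a, whose human gene is mutated in a form of monogenic diabetes, had 1110 reads with the GR vector and 1140 with the control vector, a fold of 0.976 (0.898 to 1.06). Hnf4g had 122 reads with the GR vector and 121 with the control vector (fold 1.01, 0.780 to 1.31). Hnf4a took 90.1% of the reads of the pair with the GR vector (88.3 to 91.7) and 90.4% with the control vector (88.6 to 92.0). Of 8 HNF4A targets 7 were listed and 0 passed the library test. G6pc2, the islet glucose-6-phosphatase subunit, had 20699 reads with the GR vector and 20384 with the control vector. Slc2a2, the glucose transporter GLUT2, had 18426 reads with the GR vector and 18070 with the control vector.

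Estrogen-related receptors are orphan receptors that drive mitochondrial genes together with PGC-1 coactivators. Esrra had 532 reads with the GR vector and 546 with the control vector (fold 0.977, 0.866 to 1.103). Esrrg, linked to beta cell maturation in mouse, had 224 reads with the GR vector and 249 with the control vector, a fold of 0.902 (0.750 to 1.09) that was the lowest among the 18 well-read members and did not pass the test. Esrrb had 2 reads in each library. All 8 targets of these receptors were listed, 0 passed the library test, and their log2 folds ran from -0.06 to 0.05. The most read of them, Atp5b (an ATP synthase subunit), had 23551 reads with the GR vector and 24116 with the control vector.

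Classical steroid receptors other than GR were barely read. Nr3c2, the mineralocorticoid receptor, which also binds glucocorticoids, had 41 reads with the GR vector and 38 with the control vector (fold 1.08, 0.679 to 1.73). Pgr, the progesterone receptor, had 16 reads with the GR vector and 20 with the control vector. Esr1 and Esr2, the estrogen receptors, had 9 and 2 reads with the GR vector, against 7 and 0 with the control vector. By level Nr3c1 stood at 37.9 RPKM and Nr3c2 at 0.342 RPKM with the GR vector, and at 19.2 and 0.316 RPKM with the control vector. Of the 7 mineralocorticoid targets, several of which GR also induces, all were listed and 0 passed the library test. Only 5 of them were well-read, and of all well-read genes the test called 4.69%, so 0 calls is no departure from that share. Fkbp5, an immunophilin of receptor chaperone complexes, had 2714 reads with the GR vector and 2580 with the control vector. Of 5 estrogen targets all were listed and 0 passed, the most read being Xbp1 (a factor of the unfolded protein response, 1509 reads with the GR vector and 1521 with the control vector).

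Orphan receptors of the NR2 group include testicular receptors, which compete for sites of retinoid partners, and the COUP factors. Nr2c2, the most read member, had 2433 reads with the GR vector and 2463 with the control vector, a fold of 0.991 (0.936 to 1.05). Exons of other genes overlap 31.2% of its exon length, mostly Mrps25 (a mitochondrial ribosomal protein) on the opposite strand, with 599 reads with the GR vector and 556 with the control vector. Nr2c1 had 460 reads with the GR vector and 422 with the control vector (fold 1.09, 0.956 to 1.25). Nr2f6 had 1417 reads with the GR vector and 1413 with the control vector, a fold of 1.01 (0.934 to 1.08). However, 54.4% of its exon length is overlapped by Ocel1 on the opposite strand (495 reads with the GR vector and 458 with the control vector). Counts of Nr2c2 and Nr2f6 are uncertain to that extent. Nr2e3, the photoreceptor receptor, had 3 reads in each library, and Nr2e1 and Nr2f1 were not listed.

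Nr2f2 (chromosome 7, 70351944 to 70366735, minus strand, as deposited) had 349 reads with the GR vector and 264 with the control vector. Its fold of 1.33 (1.13 to 1.56) was the largest among the 18 well-read members, with an adjusted p of 0.0308 in the library test, and it was the 1 member past 1.2-fold, a size that 5.04% of the 11070 genes reached (2.68% higher and 2.36% lower). With the GC trend over all genes removed, its adjusted p was 0.0869 and the call was lost. By level it stood at 2.19 RPKM with the GR vector and 1.65 RPKM with the control vector. The share of Nr2f6 in the reads of the pair was 80.2% (78.3 to 82.1) with the GR vector and 84.3% (82.4 to 86.0) with the control vector. In the authors' deposited table Nr2f2 had a log2 fold of 0.41 and an unadjusted p of 0.347. Its antisense neighbour B130024G19Rik, which overlaps 7.46% of its exon length, was not listed. Nr2f2 is also known from endothelial and stromal cells, of whose 7 markers 4 were listed. Col1a1, Col1a2, Pdgfrb and Pecam1 had 68, 1, 3 and 5 reads with the GR vector, against 55, 3, 7 and 8 with the control vector. Col3a1, Cdh5 and Kdr were not listed. The part of such cells in the difference was not tested.

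Rora (chromosome 9, 68653786 to 69388246, plus strand, as deposited) had 1275 reads with the GR vector and 1084 with the control vector. The fold was 1.18 (1.09 to 1.28), under 1.2-fold, with an adjusted p of 0.00641 in the library test. With the GC trend removed, the adjusted p was 0.133 and this call was lost too. Its level was 5.27 RPKM with the GR vector and 4.47 RPKM with the control vector. The authors' deposited table gives Rora a log2 fold of 0.24 and an unadjusted p of 0.568. Rorb was not listed. All 4 ROR targets were listed and 0 passed the library test. Arntl, the clock activator BMAL1, had 777 reads with the GR vector and 805 with the control vector (fold 0.968, 0.876 to 1.07), and Nfil3, a clock-linked repressor, had 1298 with the GR vector and 1282 with the control vector.

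Nr6a1, the germ cell nuclear factor, had 361 reads with the GR vector and 322 with the control vector (fold 1.12, 0.965 to 1.31), and Nr5a1 (SF-1) and Nr5a2 (LRH-1) were not listed. Nr0b2 (SHP, a corepressor-like receptor induced by FXR in liver) had 6 reads with the GR vector and 3 with the control vector, and Nr0b1 was not listed.

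**Figure D2:**
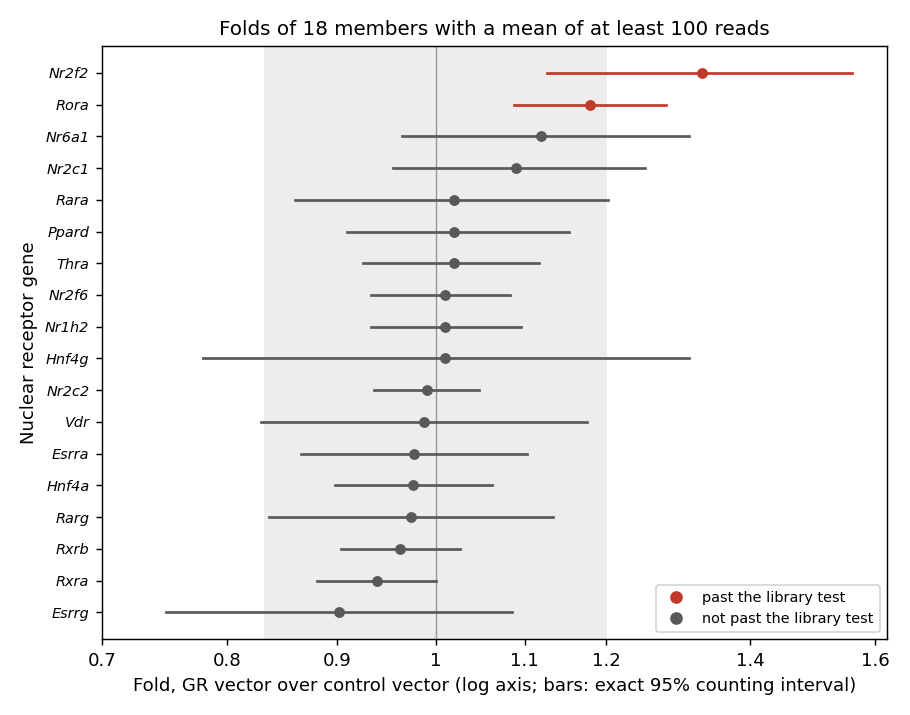
Fold between the GR vector and the control vector libraries (log axis, above 1 higher with the GR vector) for the 18 well-read members, with exact 95% counting intervals as bars and the span within 1.2-fold in grey; red marks members past the library test. Nr2f2 at 1.33 and Rora at 1.18 are the only members of the 18 whose intervals leave out 1, and 10 intervals lie wholly within 1.2-fold.

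The intervals show what size of difference these counts could hide. For 10 members (Nr1h2, Nr2c2, Nr2f6, Hnf4a, Ppard, Rarg, Rxra, Rxrb, Thra and Esrra) the 95% counting interval lay wholly within 1.2-fold in either direction. For the other 8 it reached past 1.2-fold, among them Hnf4g (0.780 to 1.31) and Esrrg (0.750 to 1.09). The 13 listed members with a mean under 100 reads had 240 reads together with the GR vector and 223 with the control vector, and 0 of them passed the library test. A difference in them of the size seen for Rora was not detectable at this depth.

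**Figure D3:**
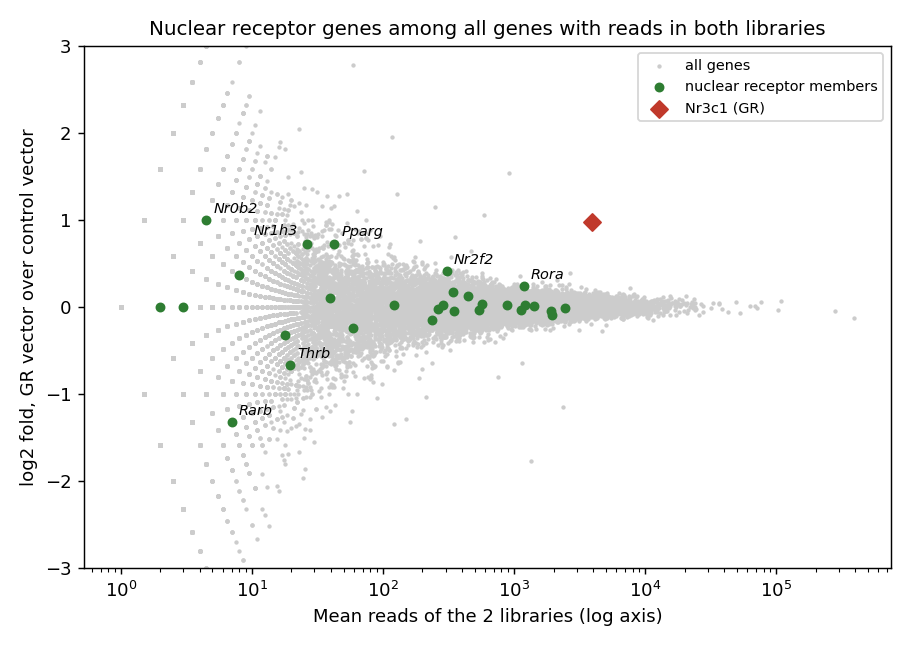
Each point is a gene with reads in both libraries, by its mean reads (log axis) and its log2 fold (GR vector over control vector), on an axis that leaves out the genes of widest fold; green marks nuclear receptor members and the red diamond Nr3c1. Members with few reads spread widely, as other genes of that depth do, while Nr2f2 at 0.41 and Rora at 0.24 lie at the upper edge for theirs and Nr3c1 lies at 0.98.

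GC content of the transcripts moved with the fold across the table, so it is given here for the calls. Over 11062 well-read genes with a known GC content, the median log2 fold was 0.056 for the 2924 genes under 45% GC in their longest transcript and -0.049 for the 2481 genes over 55%. Rora, at 40.9% GC, was the lowest of the 18 members in GC content, and Nr2f2 stood at 45.3%. With the trend over all genes removed, the log2 fold of Rora was 0.18 and that of Nr2f2 was 0.37, neither past the library test. The part of GC content in these differences was otherwise not tested. Across the 18 members the correlation of log2 fold with GC content was -0.31 (Spearman) and -0.37 (Pearson), as a description of genes that share the same pair of libraries.

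**Figure D4:**
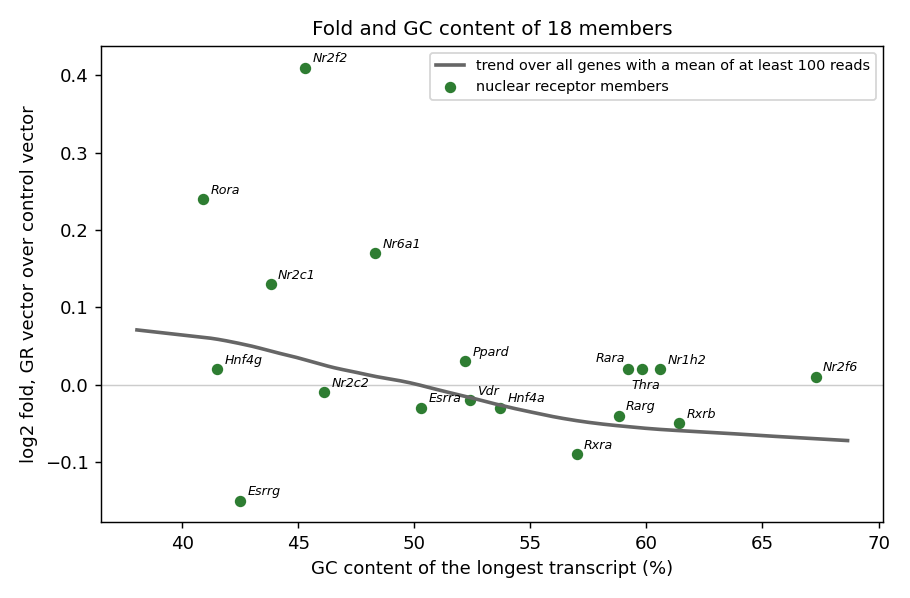
Log2 fold (GR vector over control vector) against GC content of the longest transcript (%) for the 18 well-read members; the line is the trend over all such genes. The trend is 0.06 at the GC content of Rora and -0.06 at that of Rxrb; Rora lies at 0.24 and Nr2f2 at 0.41, above the line.

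Coregulators, which receptors recruit to activate or repress, were read at levels well above most receptors. All 26 coregulator genes of the list were in the table, and 0 passed the library test, where 2.72% of all genes and 4.69% of well-read genes did. For a list of 26 genes, 0 calls is close to those shares. Of the 26, 6 had an unadjusted p under 0.05 in the library test (Ncoa7, Kat2b, Smarca4, Ncor1, Tbl1x and Hr). An unadjusted p under 0.05 was reached by 13.1% of all genes and 19.8% of well-read genes in the same exact test. Log2 folds of the 25 well-read ones ran from -0.16 to 0.18, with a median of 0.002 against 0.004 over all such genes. Among coactivators, Smarca4 (the BRG1 chromatin remodeller) had 5792 reads with the GR vector and 6044 with the control vector, and Prmt1 (an arginine methyltransferase) 4521 with the GR vector and 4513 with the control vector. Of the corepressors, Ncor1 had 7697 reads with the GR vector and 7432 with the control vector (fold 1.04, 1.01 to 1.07). Over the 11 lists of receptor targets, 65 of 76 genes were listed and 1, Acadvl, passed the library test, where 2.72% of all genes did, while 0 passed lower. The 45 well-read ones had a median log2 fold of 0.012, and 0 of them passed 1.2-fold, where 5.04% of all well-read genes did.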

How the data were processed

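DESeq2 1.10.1 is named, with no role, in the submitters' processing notes. The sources used here name no aligner, counter, strand setting or build. The authors deposited a signal per gene and library, gene counts divided by a factor per library. In 100% of values this was a whole multiple of 1 step (within 0.01 reads), so whole reads were recovered. The authors also deposited a log2 fold change, an unadjusted and an adjusted p-value per gene. These p-values differed by at most 4.5e-08 from an exact test of edgeR 4.0.16 with a preset dispersion of 0.04.

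Reads were scaled by TMM (factors 0.9989 for the GR vector and 1.0011 for the control vector). Folds are ratios of scaled reads with exact 95% Clopper-Pearson intervals. The library test is an exact two-sided binomial test (scipy 1.17.1), adjusted by Benjamini-Hochberg over 21542 genes at 0.05. It was checked on simulated data with counting error only. Those data held no spread between cultures and no GC trend, so the check does not cover either. A quasi-likelihood test needs replicates and could not be run. Coordinates are as deposited; 30 of 31 listed members match GENCODE M21 (GRCm38), which gave GC content, exon overlaps and coding sequence. RPKM used the deposited gene length.

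Named were Nr3c1, every listed member, and, of coregulators and targets, those past the library test with the most read ones; some of these are not reported here. Srebf1, Scd1, Cdkn1a, the coregulators with an unadjusted p under 0.05 and the overlapping genes were named after their values were seen. Members and gene lists were chosen with earlier results of these data known. Alternatives were other scalings, filters on low counts, preset dispersions and removal of the GC trend (lowess, span 0.3).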

Additional observations from a re-analysis of the deposited data

How the results depend on the processing

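Scaling by total reads or by DESeq2 size factors left all 18 well-read members on the same side of the threshold and in the same direction, with Nr2f2 and Rora called by both. Testing only genes that averaged 10 reads or more also left 2 members called. With the GC trend removed, 0 members were called, and 0 with edgeR exact tests at a preset dispersion of 0.01 or 0.04, which called 16 and 4 genes of the whole table, against 585 for the library test and 245 with the GC trend removed. Nr2f2 and Rora kept their direction with the GC trend removed. Values close to 0 turned sign with it: the log2 fold of Hnf4g was -0.04, of Rarg 0.02 and of Rxrb 0.01. Receptor targets called numbered 2 with total-read scaling, with DESeq2 size factors and with the filter at 10 reads (Cdkn1a added), 3 with the GC trend removed (Acadvl and Mafa among them) and 0 with either preset dispersion. Without a filter on low counts, 8 members lay past 1.2-fold, 7 of them with few reads. The median of the members stayed between 0.008 and 0.033 over these settings. Nr3c1 had a fold of 1.90 with the GC trend removed. No paired analysis was possible because each group has 1 library, and for the same reason no library could be left out. Reads per gene limit the precision of the 13 members under a mean of 100 reads.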
